A study of Mus musculus with 41 samples.

Results

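The matrix genes of the thymic stroma comprise collagens, laminins, nidogens, matrix proteases of the MMP and ADAMTS families, their TIMP inhibitors, lysyl oxidases and a fixed set of glycoproteins and proteoglycans. They were chosen by gene symbol alone: Col, Lama, Lamb, Lamc, Mmp, Timp, Adamts and Loxl followed by numbers, Lox, and Fn1, Eln, Postn, Sparc, Dcn, Lum, Bgn, Nid1 and Nid2. The rule found 91 of the 13283 genes with a single listed symbol on the array. By role there were 14 ADAMTS proteases, 15 matrix metalloproteinases, 4 TIMPs, 4 lysyl oxidases, 9 laminin chains, 2 nidogens, 6 chains of collagen IV, 11 fibrillar collagen chains, 5 chains of fibril-associated (FACIT) collagens, 10 chains of network, beaded-filament or anchoring collagens, 2 multiplexins, 2 transmembrane collagens, 4 glycoprotein or elastic fibre genes and 3 small leucine-rich proteoglycans. Fbn1, which the rule also lists, was not analysed here.

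RNA had been hybridised to Illumina bead arrays from male C57Bl/6 mice with no engineered allele named. Thymic epithelial cells (TEC) had been sorted as CD45-EpCAM+ cells, and the other stroma (nonTEC) as CD45-EpCAM- cells, a gate that can hold fibroblasts, endothelium and pericytes. TEC gave 24 arrays in 8 groups of 3: young mice of 5 to 6 weeks, unoperated middle-aged mice of 9 to 12 months, and middle-aged mice at day 4, 7 or 20 after surgical castration or a sham operation. NonTEC gave 17 arrays in 6 groups: young, middle-aged, and castrated or sham at days 4 and 7, with 3 arrays in each group except sham day 7, which had 2. Castration removes most circulating androgen. The labels name no antibody clone, no pooling of mice and no separate animals, so each p-value reflects array-to-array spread alone, which may be technical. In bulk samples of this kind, fewer cells of a type and less RNA per cell cannot be told apart. Values are the deposited log2 intensities, a relative scale that is read here only between arrays for 1 probe and never between genes.

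The extracellular matrix is the protein scaffold that stromal cells secrete around themselves. Fibroblasts make its fibrils of collagens I, III and V, while epithelium and endothelium rest on basement membranes, sheets in which collagen IV and laminin networks are linked by nidogen. Lysyl oxidases cross-link the collagen and elastin, metalloproteinases and ADAMTS enzymes cut matrix proteins, and TIMPs bind and block the metalloproteinases. In the thymus, matrix surrounds the capsule, septa and vessels, and basement membranes separate the epithelial network from the perivascular spaces.

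Of the 91 genes, 59 had an entry in the RefSeq promoter table (GRCm38.p6). The genes of the main chains of collagen IV, Col4a1 and Col4a2, are shown because they lie head to head on chromosome 8 and their transcripts moved together with age in nonTEC. Their listed starts lie 21 bases apart and point in opposite directions. In the stretch chr8:11312801-11312830, read on the plus strand, the capitals mark the first bases of Col4a2 (left) and Col4a1 (right):
Col4a2 and Col4a1 starts: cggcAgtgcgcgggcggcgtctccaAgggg
The 250 bases upstream of Nid1 (chr13:13437352-13437601, plus strand), Timp3 (chr10:86300162-86300411, plus strand) and Mmp3 (chr9:7445572-7445821, plus strand) are shown because these genes were higher in middle-aged than in young nonTEC and lower after castration. Capitals mark matches, on either strand, to the letters TATAAA of a TATA box, the letters CCAAT of a CCAAT box, the letters GGGCGG of a GC box and the letters TGANTCA of an AP-1 site:
Nid1: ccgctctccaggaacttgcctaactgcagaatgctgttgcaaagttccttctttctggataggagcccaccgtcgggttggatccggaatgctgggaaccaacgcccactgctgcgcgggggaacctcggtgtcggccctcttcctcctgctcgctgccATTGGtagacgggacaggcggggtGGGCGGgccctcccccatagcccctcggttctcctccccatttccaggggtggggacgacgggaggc
Timp3: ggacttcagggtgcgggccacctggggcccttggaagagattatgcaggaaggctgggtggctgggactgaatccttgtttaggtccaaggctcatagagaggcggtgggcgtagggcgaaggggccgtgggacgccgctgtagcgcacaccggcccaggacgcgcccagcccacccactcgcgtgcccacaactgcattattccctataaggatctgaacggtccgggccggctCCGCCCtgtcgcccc
Mmp3: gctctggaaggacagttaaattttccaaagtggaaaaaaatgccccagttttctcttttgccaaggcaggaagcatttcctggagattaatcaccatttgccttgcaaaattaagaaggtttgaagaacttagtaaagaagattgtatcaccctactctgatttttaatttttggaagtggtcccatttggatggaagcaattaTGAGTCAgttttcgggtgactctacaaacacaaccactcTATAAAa
Counting back from -1 at the last base before the start, the Nid1 window holds a CCAAT match at -91 (as its reverse complement) and a GC box match at -67. The Timp3 window holds a GC box match at -15, also on the other strand. The Mmp3 window holds an AP-1 match at -46 and a TATA match at -7. The 32851 windows of the table run from 250 bases before a start to 50 after it, and only the 250 bases before it were searched. Of these windows, 12.4% hold the TATA letters, 33.8% the CCAAT letters, 32.7% the GC box letters and 6.75% the AP-1 letters. Of the 59 matrix genes with such a window, 9 hold the TATA letters, 18 the CCAAT letters, 35 the GC box letters and 5 the AP-1 letters. A gene with several windows was counted if any of them held the letters. The counts of genes and the shares of windows are thus in different units and cannot be compared directly. Each match is a run of letters and not a measured binding site.

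The table held values for 77 of the 91 genes in TEC, for 82 in nonTEC and for 68 in both fractions. A gene was tested where at least 1 group mean exceeded 6.73, the median of all values, which left 45 matrix genes in TEC, 57 in nonTEC and 57 in the comparison of fractions. The 26 genes tested in neither fraction included Postn, Lama4, Col4a3, Col4a4 and Timp4. For 5 genes, among them Col17a1, the probe of highest mean differed between the fractions. Calls below are at an adjusted p under 0.05 by limma over all genes tested, differences are log2 values ± SE, and counts of matrix genes are read against the share of all genes called.

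Marker genes checked the fractions, and some arrays stood apart. Of the fibroblast markers tested, 8 of 8 were lower in TEC (median difference -5.00), and 7 of 7 epithelial markers were higher (median 5.02). Thymocyte markers were lower in TEC in 5 of 5 cases and pan-leukocyte markers higher in 4 of 5, in fractions both sorted as CD45-. On the first principal component of the matrix genes in TEC (36.7% of variance), all 6 day 20 arrays lay between 2.94 and 4.33 and no other array was above 0.103. Sham day 4 TEC array 3 lay at the opposite end, at -5.12, and its mean over the fibroblast markers was 8.71, compared with 6.65 and 6.89 for sham day 4 arrays 1 and 2. In nonTEC the young arrays lay between 4.01 and 5.19 on the first component (44.4%), and no other array was above 0.494.

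Most matrix transcripts belonged to the non-epithelial fraction. Over unoperated young and middle-aged mice, 48 of the 57 genes tested were lower in TEC and 8 were higher, against 47.4% and 29.3% of all 8487 genes. The fractions were read from their values as normalized separately before deposit, so this contrast would carry that difference. In either direction 76.7% of all genes passed, and for 44.8% the arrays of the fractions did not overlap. The median difference, TEC minus nonTEC, was -2.85 for the matrix genes and -0.26 for all genes. For 19 of the 57 both unoperated TEC groups averaged below the filter value of 6.73, and for 4 both nonTEC groups did. Those 23 entered through the fraction where they were high and had to differ, so their calls support nothing and their differences are lower limits. Of the other 34 genes, 29 were lower and 4 higher in TEC. The same split was not made for all genes, so these 2 counts have no matching background share. Among these 34, Col5a1, Col4a1, Col4a2, both nidogens, Lox, Loxl1 and all 3 small proteoglycans were on the nonTEC side. Col4a5, Loxl4 and the other fibrillar chains tested were among the 23.

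Lum, which encodes the collagen-binding proteoglycan lumican, ranged from 6.15 to 8.47 over the 6 TEC arrays and from 13.51 to 14.16 over the 6 nonTEC arrays. The ranges did not overlap (-6.60 ± 0.34, adjusted p = 7.43e-18, limma). Col3a1, the chain of collagen III, was between 4.29 and 5.17 in TEC and between 9.74 and 12.18 in nonTEC. Its difference, fitted at -6.43 ± 0.21, and those of Col1a1, a chain of collagen I (-6.03 ± 0.25), the laminin chain Lama2 (-5.48 ± 0.25) and fibronectin (Fn1, -4.71 ± 0.43) are such lower limits, with TEC below the filter value. The basement membrane linker Nid1 was between 6.32 and 7.12 in TEC and between 12.18 and 13.13 in nonTEC (-5.89 ± 0.27). The stromelysin gene Mmp3 differed by -5.64 ± 0.33 and the multiplexin Col15a1 by -5.36 ± 0.28.

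The 8 genes on the epithelial side included parts of the epithelial anchoring complex. Lamb3, the beta chain of the laminin under squamous epithelia, was between 11.03 and 12.03 in TEC and between 6.09 and 8.07 in nonTEC (4.31 ± 0.15, adjusted p = 2.62e-22, limma). Col17a1, the transmembrane collagen of hemidesmosomes, was between 8.49 and 10.02 against 4.50 and 5.39 (4.18 ± 0.20, a lower limit with nonTEC below the filter value). In neither gene did any array of one fraction reach the other. Col9a2, a FACIT collagen chain, was 2.45 ± 0.19 higher in TEC, the laminin chain Lama5 2.20 ± 0.23, the protease Adamts9 1.45 ± 0.16 and the collagenase Mmp13 1.31 ± 0.25. The values of Col9a2, Lama5 and Mmp13 are lower limits for the same reason. The inhibitor Timp1 was 1.07 ± 0.18 higher and the transmembrane collagen Col23a1 0.82 ± 0.16 higher, with overlapping arrays in both cases. The anchoring fibril collagen Col7a1 was the 1 gene that did not pass (-0.25, adjusted p = 0.29, limma). Of the laminin chains with neither fraction below the filter value, Lamb3 stood on the epithelial side and Lamb2 and Lamc1 stood on the other.

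**Figure D1:**
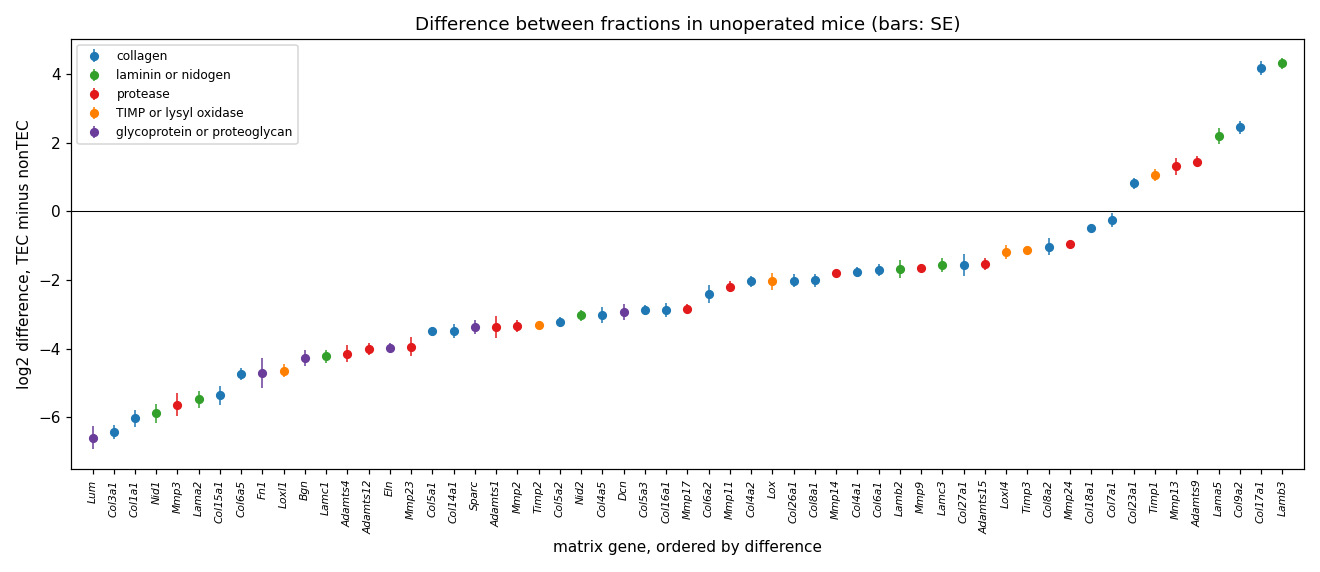
Difference between fractions for the 57 matrix genes tested, in unoperated young and middle-aged mice. The y axis is the log2 difference, TEC minus nonTEC, points are estimates, bars are SE and colours are gene families; 8 genes passed above 0, among them Lamb3 and Col17a1, and most lie below. For 23 genes 1 fraction lay below the filter value, and the plotted difference is a lower limit.

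In nonTEC, fibrillar and basement membrane collagens were lower with age and a smaller set was higher, including Timp3, Nid1 and Mmp3. Of the 57 genes tested, 21 were lower and 8 higher in middle-aged than in young mice, against 15.5% and 16.8% of all 7771 genes. The 21 lower calls were 36.8% of the matrix genes and the 8 higher calls 14%, the latter near the background. In either direction 32.4% of all genes passed, and the 2 groups did not overlap for 40.1%. The median difference was -0.22 for the matrix genes and 0.02 for all genes. By role, 5 of 7 fibrillar chains, 5 of 8 network, beaded-filament or anchoring chains, 2 of 3 collagen IV chains, 2 of 2 multiplexins and 2 of 3 glycoprotein or elastic fibre genes fell.

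Col3a1 read 11.72, 11.95 and 12.18 on the young nonTEC arrays and 10.50, 10.18 and 9.74 on the middle-aged arrays. All young arrays were above all middle-aged ones, and the difference was -1.81 ± 0.25 (adjusted p = 7.39e-05, limma). Col1a1 read 11.98, 12.67 and 12.73 in young and 11.43, 11.21 and 10.63 in middle-aged nonTEC (-1.37 ± 0.21, adjusted p = 1.82e-04), again without overlap. Its partner chain Col1a2 differed less, by -0.58 ± 0.19, and middle-aged array 1 (11.34) lay within the young range of 11.33 to 11.51. The collagen V chains Col5a3 and Col5a2 fell by 1.23 ± 0.17 and 0.98 ± 0.24, while Col5a1 differed by -0.06 (adjusted p = 0.85). The beaded-filament chain Col6a2 read 13.00, 13.30 and 13.59 in young and 11.83, 11.39 and 11.18 in middle-aged arrays (-1.83 ± 0.18), and Col6a1 fell by 0.42 ± 0.13 with overlap. Other probes above the filter went the opposite way for 2 of these genes, by 0.21 for Col3a1 and 0.38 for Col6a2.

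The head-to-head pair fell by nearly the same amount. Col4a1 read 13.86, 13.70 and 13.91 on the young nonTEC arrays and 13.01, 12.52 and 12.26 on the middle-aged ones (-1.22 ± 0.16, adjusted p = 5.86e-05, limma). Col4a2 read 13.32, 13.23 and 13.55 against 12.50, 11.96 and 11.85 (-1.26 ± 0.17), and no middle-aged array reached a young one in either gene. Col4a5, on the X chromosome, also lies head to head, with its start 1343 bases from that of Col4a6. It differed by 0.55 (adjusted p = 0.066, limma), and Col4a6 was not tested. Any part of gene placement in these nonTEC differences was not tested. Sparc, which encodes a collagen-binding glycoprotein of basement membranes, read 14.51, 14.52 and 14.40 in young and 13.41, 13.92 and 13.33 in middle-aged arrays (-0.92 ± 0.13). Elastin (Eln) fell by 0.95 ± 0.17, and the multiplexins Col15a1 and Col18a1 fell by 0.66 ± 0.13 and 0.45 ± 0.17. Lamb3, an epithelial chain, read 7.94, 7.81 and 8.07 in young and 6.09, 6.27 and 6.28, below the filter value, in middle-aged nonTEC (-1.73 ± 0.22). The collagen chain Col26a1 fell by 1.48 ± 0.29. The 3 small proteoglycans Dcn, Lum and Bgn did not pass, with differences of 0.02, -0.31 and 0.02, but Dcn (14.33 to 14.55) and Bgn (14.49 to 14.69) lay near the highest value of the table, 14.89, where a change may not show.

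Among the genes that rose, the inhibitor Timp3 read 11.52, 11.44 and 11.28 on the young and 12.56, 12.27 and 12.14 on the middle-aged nonTEC arrays (0.91 ± 0.13, adjusted p = 8.47e-05, limma). The groups were apart. Col28a1, a collagen chain related to collagen VI, read 5.11, 5.26 and 5.21 in young, below the filter value, and 7.50, 6.56 and 6.69 in middle-aged mice (1.72 ± 0.25). Col23a1 rose by 1.26 ± 0.24, the membrane-anchored metalloproteinase Mmp17 by 0.90 ± 0.18, and the laminin chain Lamc3 by 0.88 ± 0.25. The young means of Col23a1 (5.79) and Lamc3 (6.24) also lay below the filter value. Like Col28a1, they entered the test through groups of older mice, where they are high. Nid1 read 12.35, 12.45 and 12.18 in young and 13.13, 13.05 and 12.30 in middle-aged arrays, so that middle-aged array 3 lay within the young range (0.50 ± 0.18, adjusted p = 0.0447). Mmp3 rose by 0.38 ± 0.14 and the protease Adamts1 by 1.04 ± 0.38, the latter with overlap. The other inhibitors differed in direction: Timp1 fell by 0.63 ± 0.23 and Timp2 did not pass (-0.05). The gelatinase Mmp9 read 12.19, 12.14 and 12.24 in young and 11.77, 11.13 and 11.71 in middle-aged nonTEC (-0.65 ± 0.16).

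Other cell types moved in the same comparison. In middle-aged nonTEC, 5 of 5 pan-leukocyte markers, 5 of 5 thymocyte markers and 4 of 5 epithelial markers fell, and the pan-leukocyte list averaged 9.43 to 9.68 on young and 7.25 to 8.10 on middle-aged arrays. The epithelial list averaged 7.20 to 8.17 on young and 5.76 to 6.75 on middle-aged arrays, and Lamb3 and Mmp9 fell beside these lists. The fibroblast list averaged 11.40 to 11.49 and 11.30 to 11.60, with 1 of 9 markers up and 1 down. Their part in the result was not tested. With only the 6 arrays compared in the fit, 18 matrix genes passed in place of 29. In all, 16 of the 29 held under every alternative tried, among them Col1a1, Col3a1, Col4a1, Col4a2, Col6a2, Sparc, Lamb3, Mmp9 and Timp3.

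Related genes changed in both directions with age in nonTEC. Of 12 genes of collagen synthesis and folding, 3 rose and 3 fell: the lysyl hydroxylase Plod1 fell by 1.07 ± 0.16 and the procollagen C-proteinase enhancer Pcolce by 0.60 ± 0.14, while the prolyl hydroxylase subunit P4ha1 rose by 0.66 ± 0.18. In the elastic fibre list 2 of 9 fell, Mfap4 by 1.18 ± 0.36 and Emilin1 by 0.55 ± 0.18. Of 12 matrix receptors, 3 rose and 1 fell; the integrin chains Itgb5 (0.59 ± 0.13) and Itga11 (1.09 ± 0.28) and the collagen receptor Ddr2 (0.86 ± 0.25) rose. Of 9 genes of TGF-beta signalling, 3 rose and 1 fell, the fall being in the ligand Tgfb1 (-1.27 ± 0.26). Of 11 other proteoglycans and glycoproteins, 2 rose and 2 fell, among them the basement membrane proteoglycan Agrn (0.58 ± 0.16) and the glycoprotein Ecm1 (-0.35 ± 0.11). Of 7 genes of the plasminogen and cathepsin list, the collagen-cutting cathepsin Ctsk fell by 0.61 ± 0.12 and Plau rose by 0.63 ± 0.23.

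**Figure D2:**
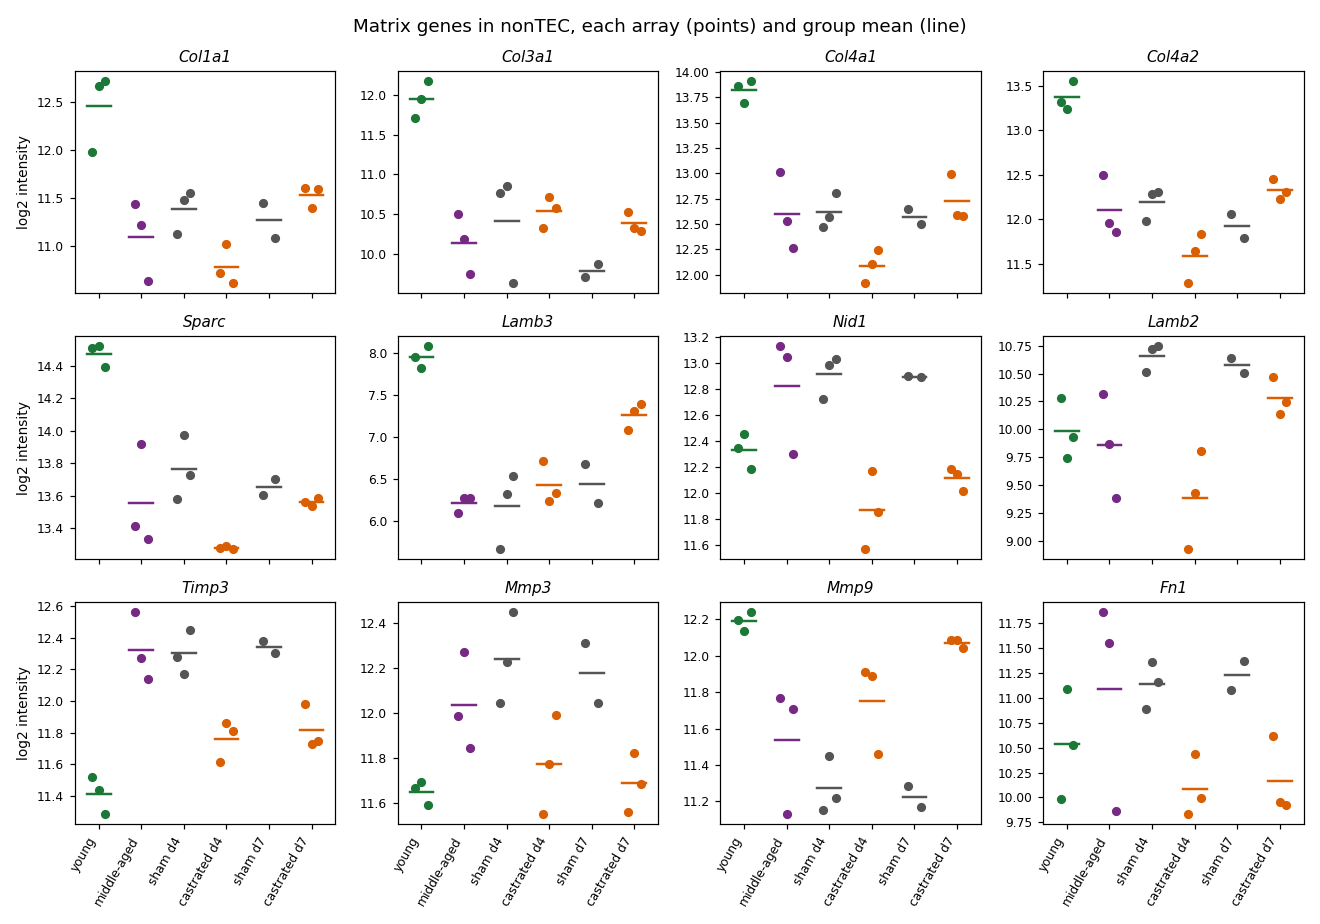
Array values of 12 matrix genes in nonTEC. The y axes are log2 intensities, points are single arrays, lines are group means and the x axis gives the 6 groups; the young arrays lie highest for Col1a1, Col3a1, Col4a1, Col4a2, Sparc and Lamb3 and lowest for Timp3, and castrated arrays lie below sham arrays of the same day for Nid1 and Timp3.

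In TEC, the genes that were higher with age included collagen chains Col7a1, Col18a1 and Col23a1, Adamts19, the laminin chains Lama1 and Lamc1, and Timp2. Of the 45 genes tested, 13 were higher and 1 was lower in middle-aged TEC, against 11.9% and 6.88% of all 8195 genes. Over both directions 18.8% of all genes passed, and 26.8% had groups that did not overlap. The median difference was 0.29 for the matrix genes and 0.01 for all genes. Both lysyl oxidases tested, 2 of 5 laminin chains, 2 of 4 network or anchoring collagen chains and 2 of 7 metalloproteinases rose, whereas 0 of 3 fibrillar chains and 0 of 3 collagen IV chains were called in either direction (limma).

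Adamts19, an ADAMTS protease of unsettled substrate, read 6.97, 6.40 and 7.07 on the young TEC arrays and 7.99, 9.12 and 8.31 on the middle-aged ones. The groups did not overlap, and the difference was 1.66 ± 0.24 (adjusted p = 2.30e-04, limma). Col7a1 read 7.15, 7.42 and 7.29 in young and 8.53, 9.39 and 8.48 in middle-aged TEC (1.51 ± 0.32). Col23a1 read 6.72, 6.79 and 6.28 in young and 7.82, 7.96 and 7.87 in middle-aged TEC (1.28 ± 0.21), again without overlap. The endostatin precursor gene Col18a1 read 10.99, 10.92 and 11.31 in young and 12.01, 12.29 and 11.64 in middle-aged arrays (0.91 ± 0.15). Timp2 read 9.90, 9.64 and 10.11 against 11.06, 11.08 and 10.86 (1.12 ± 0.16, adjusted p = 1.62e-04). Every middle-aged array was above every young array in these 5 genes.

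The laminin chain Lama1 read 5.41, 6.15 and 5.97 in young, below the filter value, and 6.44, 7.16 and 7.31 in middle-aged TEC (1.13 ± 0.25). Lamc1, the widely shared gamma chain, rose by 1.12 ± 0.32, and Lama5 differed by 0.82 without passing (adjusted p = 0.051). Col8a2, a network collagen chain, rose by 1.42 ± 0.35, the proteoglycan biglycan (Bgn) by 1.20 ± 0.41, and the cross-linking enzymes Loxl1 and Lox by 1.06 ± 0.31 and 0.99 ± 0.33. The young arrays of Col8a2 also lay below the filter value. It passed the filter only through unoperated middle-aged and castrated day 4 TEC, where it is highest. The Col8a2 call thus adds no support, and its difference is a lower limit. Lama1 likewise entered the test through groups of older mice. The gelatinase Mmp2 rose by 1.0 ± 0.28, and Mmp14, the membrane enzyme that activates it, by 0.49 ± 0.14. Mmp9 was the 1 gene that fell, from 10.48, 10.48 and 10.52 on young arrays to 9.57, 9.85 and 10.32 on middle-aged arrays (-0.58 ± 0.16, adjusted p = 0.0184).

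The TEC calls rested on the spread shared by all 24 arrays. Correlations among the middle-aged TEC arrays were 0.909, 0.893 and 0.798, below the median of 0.977 among TEC replicates. The lowest was between middle-aged arrays 2 and 3. With only the 6 arrays compared in the fit, 0 of 45 genes passed (16 at an unadjusted p under 0.05, limma), and without the 4 arrays that stood apart 22 passed. Leaving out young array 2 gave 7, young array 3 gave 8 and middle-aged array 2 gave 8. With sham arrays in place of unoperated ones, Bgn, Col8a2, Lamc1, Loxl1, Mmp2 and Mmp14 were not called, while Adamts19, Col7a1, Col18a1, Col23a1, Lama1 and Timp2 were. Beside these changes, 4 of 7 pericyte and smooth muscle markers and 3 of 5 pan-leukocyte markers fell in middle-aged TEC, 0 of 6 fibroblast markers were called, and the fibroblast list averaged 6.74 to 6.81 on young and 6.81 to 7.76 on middle-aged arrays. Their part in the result was not tested.

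The other matrix lists in TEC are read against the 11.9% of all genes higher with age. In the elastic fibre list 2 of 6 rose, the TGF-beta binding proteins Ltbp3 (1.20 ± 0.18) and Ltbp4 (1.34 ± 0.27). In the list of other proteoglycans and glycoproteins 3 of 10 rose, among them Prelp (1.45 ± 0.24) and Agrn (0.58 ± 0.13). Of 8 TGF-beta genes, 4 rose, including the receptors Tgfbr3 (1.88 ± 0.40) and Tgfbr2 (1.13 ± 0.26), and the target Tgfbi fell by 0.74 ± 0.21. Of 8 collagen synthesis genes, 0 were called (limma), and of 10 matrix receptors the collagen receptor Ddr1 rose (0.59 ± 0.18). The plasminogen activator Plat rose by 0.94 ± 0.24, the 1 call among 5 genes of the plasminogen and cathepsin list.

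**Figure D3:**
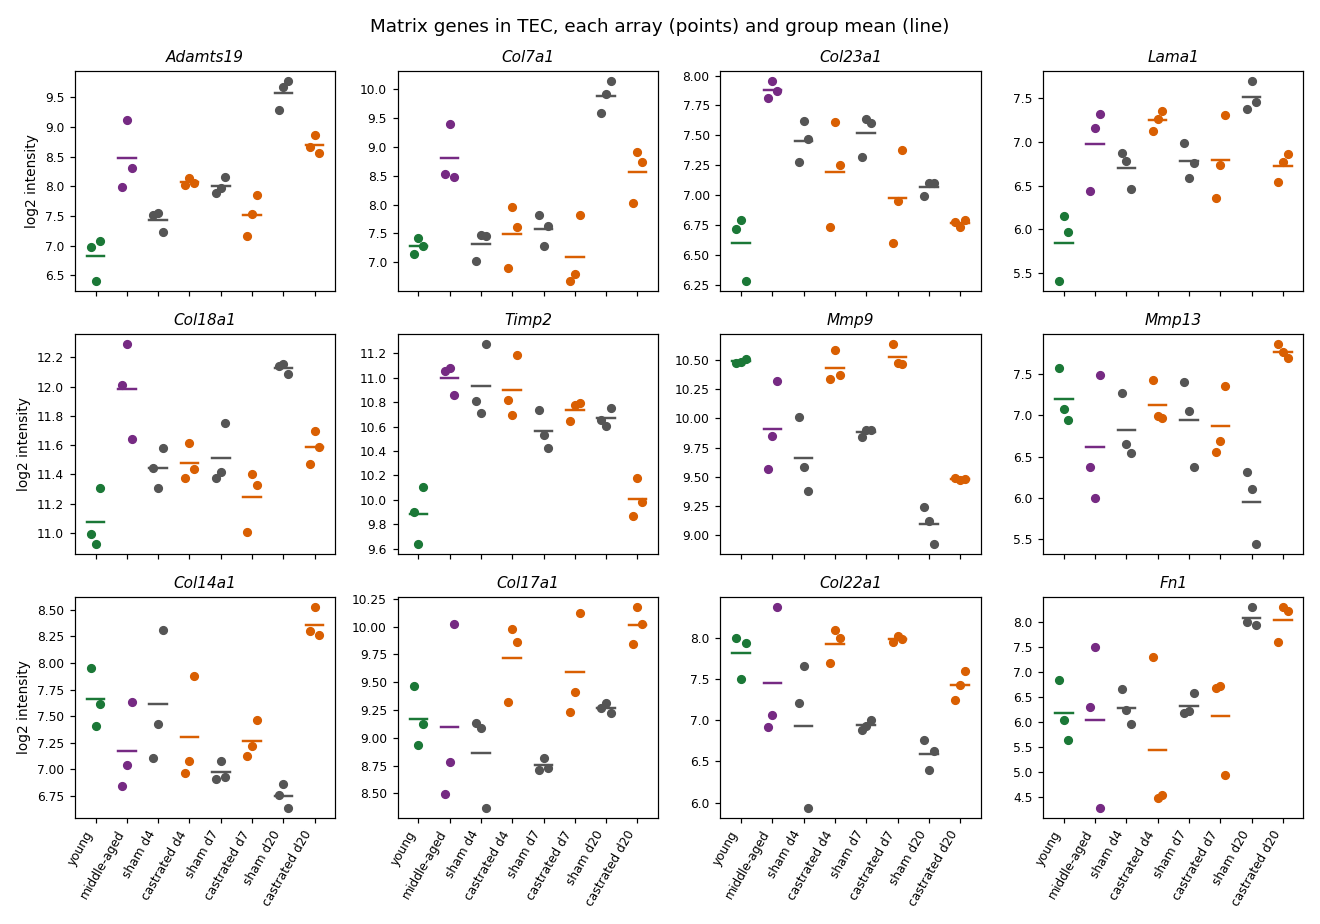
Array values of 12 matrix genes in TEC. The y axes are log2 intensities, points are single arrays, lines are group means and the x axis gives the 8 groups; middle-aged arrays lie above young arrays for Adamts19, Col7a1, Col23a1, Lama1, Col18a1 and Timp2, and at day 20 castrated arrays lie below sham arrays for Adamts19, Col7a1, Lama1, Col18a1 and Timp2 and above them for Mmp13 and Col14a1.

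The ageing difference itself differed between fractions for 16 of the 57 matrix genes in the joint fit. In 14 it was higher in TEC than in nonTEC and in 2 lower (24.6% and 3.51%), against 7.78% and 3.45% of all 8487 genes tested (11.2% in either direction). The fractions were again read as normalized separately. For 5 of the 16 (Col26a1, Col3a1, Col5a2, Col5a3 and Mmp17) both TEC groups lay below the filter value, where a fall cannot be seen. The gaps of Col3a1, Col5a2, Col5a3 and Mmp17 restate the nonTEC change and show no difference between fractions. Col26a1 differed by 0.8 in TEC and by -1.48 in nonTEC, so its gap holds both. Its TEC difference, below the filter value, was not tested on its own. The other 11 came from the 34 genes with an unoperated group above the filter value in each fraction. For Col7a1, the middle-aged minus young difference was 1.51 in TEC and -0.74 in nonTEC, a gap of 2.26 ± 0.43 (adjusted p = 8.93e-04, limma). For Col18a1 it was 0.91 in TEC and -0.45 in nonTEC (1.36 ± 0.23). These 2 genes passed the test of ageing in both fractions, in opposite directions. Their TEC calls held under 13 of 14 alternatives each. The nonTEC calls were weaker and held under 7 of 13 for Col7a1 and 6 of 13 for Col18a1. Col8a2 (2.09 ± 0.49), Col4a2 (1.82 ± 0.31) and Col15a1 (1.70 ± 0.57) also had a positive difference in TEC and a negative one in nonTEC. Lamb3 and Col4a1 fell with age in nonTEC, while their TEC differences were 0.14 and 0.08. Timp2 and Mmp2 had TEC differences of 1.12 and 1.0 beside nonTEC differences of -0.05 and -0.22. Timp3 had the reverse order, by -1.10 ± 0.20, with ageing differences of 0.91 in nonTEC and -0.19 in TEC. Col23a1 had nearly equal differences in both fractions, with a gap of 0.02 (adjusted p = 0.98). Of the 11, Col7a1, Lamb3, Timp2 and Timp3 held under every alternative. Over all 57, 6 genes passed with only the arrays compared and 25 without the arrays that stood apart. In the same contrast, 4 of 7 epithelial and 3 of 5 pan-leukocyte markers had a higher ageing difference in TEC; their part in the result was not tested.

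**Figure D4:**
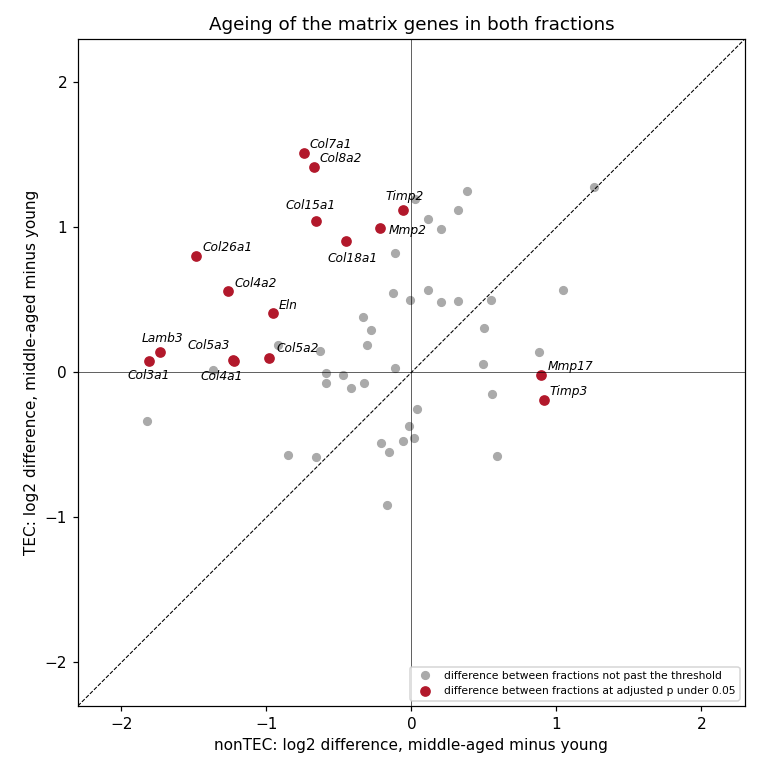
Ageing differences of the 57 matrix genes in the joint fit of both fractions. The x axis is the log2 difference, middle-aged minus young, in nonTEC and the y axis the same in TEC; each point is a gene, red points are the 16 whose difference between fractions passed, and the dashed line marks equal differences. Col7a1 and Col8a2 lie at upper left, and Timp3 lies right of centre. The TEC values of Col26a1, Col3a1, Col5a2, Col5a3 and Mmp17 lie below the filter value, where a fall cannot be seen. Of these, Col26a1 lies at 0.8 in TEC and the others lie between -0.02 and 0.1.

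After castration, Nid1, Nid2, Lamb2, Lamc1, Timp2 and Timp3 were among the genes lower in nonTEC at day 4. At that day, 11 of 57 matrix genes were lower than in sham mice and 0 higher, against 3.65% and 2.65% of all genes (6.31% in either direction, while 28.7% had groups that did not overlap). The median difference was -0.38 for the matrix genes and -0.04 for all genes, and 46 of the 57 differences were below 0. Both nidogens, 2 of 6 laminin chains, 2 of 3 TIMPs and 1 of 3 collagen IV chains fell. At an unadjusted p under 0.05, 31 of the 57 passed in either direction (limma).

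Lamb2, the beta chain of vascular and muscle laminins, read 10.52, 10.72 and 10.74 on the sham day 4 arrays and 8.93, 9.42 and 9.80 on the castrated day 4 arrays. All castrated arrays were below all sham arrays (-1.28 ± 0.22, adjusted p = 0.00491, limma). Nid1 read 12.72, 12.99 and 13.03 in sham and 11.57, 12.17 and 11.85 in castrated mice (-1.05 ± 0.18), also apart, and Nid2 fell by 0.75 ± 0.20. Timp3 read 12.28, 12.17 and 12.45 in sham and 11.61, 11.86 and 11.81 in castrated mice (-0.54 ± 0.13). Timp2 fell by 0.48 ± 0.14, the gelatinase Mmp2 by 0.56 ± 0.14 and the protease Adamts15 by 0.94 ± 0.20. Lamc1 fell by 0.56 ± 0.16, Col4a2 by 0.60 ± 0.17, Col5a3 by 0.69 ± 0.17 and Sparc by 0.48 ± 0.13. Another probe of Sparc above the filter differed by 0.53 in the other direction. Col4a1 differed by -0.53 (adjusted p = 0.064), Fn1 by -1.05 (0.10) and Lox by -1.07 (0.053). Col3a1 (0.12), Col1a2 (-0.24) and the proteoglycans Dcn (-0.05), Lum (0.02) and Bgn (-0.27) did not pass.

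These calls depended on single arrays. Leaving out castrated day 4 array 1 gave 2 calls, castrated array 2 gave 4, castrated array 3 gave 17, sham array 2 gave 4 and sham array 3 gave 2. With unoperated controls 5 of the 11 calls held. Markers of other cells moved beside them: 5 of 5 thymocyte, 5 of 5 pan-leukocyte and 4 of 5 epithelial markers were higher in castrated day 4 nonTEC. The thymocyte list averaged 6.76 to 7.12 on sham and 7.54 to 9.26 on castrated arrays. All 9 fibroblast markers had differences below 0, of which 1 was called, and the list averaged 11.61 to 11.72 on sham and 11.26 to 11.40 on castrated arrays. Their part in the result was not tested.

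At day 7 the castration contrast in nonTEC called 1 matrix gene, against 0.0515% of all genes higher and 0.386% lower (0.438% in either direction), with 2 sham arrays. The groups did not overlap for 34.7% of all genes. Mmp9 read 11.29 and 11.17 in sham and 12.09, 12.09 and 12.04 in castrated mice (0.85 ± 0.17, adjusted p = 0.0336, limma). The groups were apart, but the call was lost when any 1 of these 5 arrays was left out. Nid1 read 12.90 and 12.89 in sham and 12.18, 12.14 and 12.01 in castrated arrays (-0.78, adjusted p = 0.096), and Col18a1 read 11.30 and 11.31 against 12.24, 12.05 and 12.15 (0.84, adjusted p = 0.051). Neither passed, although the arrays did not overlap in either gene.

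Averaged over days 4 and 7, 10 matrix genes were lower and 2 higher after castration in nonTEC, against 3.81% and 2.73% of all genes (6.54% in either direction, with 5.19% not overlapping). Nid1 was lower by -0.92 ± 0.14 (adjusted p = 8.30e-04, limma) and Timp3 by -0.53 ± 0.10 (0.00372), and these 2 held under every alternative. Fn1 was 11.08 and 11.37 on the sham day 7 arrays and 10.62, 9.96 and 9.93 on the castrated ones, and over both days it was lower by -1.06 ± 0.28. Lox (-0.89 ± 0.24), Lamc3 (-0.81 ± 0.19), Lamb2 (-0.78 ± 0.17), Adamts15 (-0.56 ± 0.15), Mmp3 (-0.48 ± 0.11), Col5a3 (-0.47 ± 0.13) and Timp2 (-0.38 ± 0.10) were the other lower genes. Mmp9 (0.66 ± 0.12) and Col18a1 (0.44 ± 0.12) were higher. Lamc3 lay below the filter value in both castrated groups and entered only through sham and unoperated middle-aged ones. With unoperated controls 8 genes passed, but 3 of these 12 calls held (Lox, Nid1 and Timp3); Lamb2 then differed by -0.02, Col18a1 by 0.08 and Col5a3 by 0.19. Lamb2 differed by -0.29 at day 7 and -1.28 at day 4, and the difference between days was not tested. The count was 6 without castrated day 4 array 1, 7 without sham day 4 array 2 or 3, 6 without castrated day 7 array 2, 3 without sham day 7 array 1 and 6 without sham day 7 array 2. Over both days, 5 of 5 thymocyte, 5 of 5 epithelial and 4 of 5 pan-leukocyte markers were higher and 0 of 9 fibroblast markers passed; their part in the result was not tested.

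Genes of the other matrix lists passed in small numbers after castration in nonTEC. At day 4 the TGF-beta binding proteins Ltbp3 (-0.55 ± 0.15) and Ltbp4 (-0.54 ± 0.14) fell, 2 of 9 in the elastic fibre list. Ecm1 (-0.54 ± 0.11) and the tenascin Tnxb (-1.22 ± 0.27) fell, 2 of 11 other glycoproteins. Of 12 collagen synthesis genes the lysyl hydroxylase Plod2 fell (-0.81 ± 0.20). Of 9 TGF-beta genes the co-receptor Tgfbr3 fell (-0.77 ± 0.19), and of 12 matrix receptors the epithelial integrin chain Itgb4 rose (1.02 ± 0.30). Over both days, 1 of 11 other glycoproteins (Tnxb), 1 of 12 receptors (Ddr2) and 1 of 9 TGF-beta genes (Tgfbr3) were lower.

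In TEC, castration was followed by the largest count of matrix calls at day 20. At day 4, 2 of 45 genes were higher and 0 lower (neither call held with unoperated controls), against 2.33% and 1.29% of all genes (3.62% in either direction, with 22.9% not overlapping). Mmp9 read 10.01, 9.58 and 9.38 on sham and 10.34, 10.59 and 10.37 on castrated arrays (0.78 ± 0.16, adjusted p = 0.0224, limma), and Col8a2 read 5.95, 5.66 and 6.07 against 6.66, 8.27 and 7.30 (1.52 ± 0.35). Both were apart, but 0 genes were called without sham array 2, sham array 3, castrated array 2 or castrated array 3, and 8 without castrated array 1. Col8a2 passed the filter only through castrated day 4 and unoperated middle-aged TEC, the groups where it is highest. Its call thus adds no support, and its difference is a lower limit. At day 7, 0 of 45 genes passed, with 8 at an unadjusted p under 0.05 (limma), against 0.0732% of all genes higher and 0.0976% lower (0.171% in either direction, with 27.3% not overlapping).

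At day 20, 4 of 45 matrix genes were higher and 6 lower in castrated TEC, against 13.1% and 9.4% of all genes (22.5% in either direction, with 58.5% not overlapping). The 10 calls were thus no larger a share than among all genes. Mmp13, the interstitial collagenase of mice, read 6.32, 6.11 and 5.44 on sham and 7.86, 7.76 and 7.69 on castrated arrays (1.82 ± 0.35, adjusted p = 8.93e-04, limma). Col14a1, a FACIT collagen that coats fibrils, read 6.76, 6.87 and 6.64 in sham and 8.30, 8.52 and 8.26 in castrated mice (1.61 ± 0.27). The groups did not overlap in either gene. Col5a1 rose by 0.72 ± 0.18 and Timp3 by 0.43 ± 0.15.

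Col7a1 read 9.59, 9.92 and 10.14 on the sham day 20 arrays and 8.03, 8.90 and 8.74 on the castrated ones (-1.32 ± 0.32). Adamts19 read 9.29, 9.68 and 9.78 against 8.66, 8.87 and 8.56 (-0.89 ± 0.24), and Timp2 read 10.65, 10.60 and 10.75 against 9.86, 10.18 and 9.98 (-0.66 ± 0.16). In all 3 the castrated arrays were below the sham arrays. Lama1 fell by 0.79 ± 0.25, Col18a1 by 0.54 ± 0.15 and the metalloproteinase Mmp24 by 0.52 ± 0.17. Col14a1, Col5a1, Mmp13 and Timp2 held under every alternative. The count was 6 without castrated day 20 array 1, sham array 2 or sham array 3, and 33 with only the 6 arrays compared. With unoperated middle-aged arrays as the control 27 genes passed and 7 of the 10 calls held. Adamts19 then differed by 0.22, Col7a1 by -0.24 and Lama1 by -0.25, none of them a call in the direction found against sham. In the same contrast 4 of 5 pan-leukocyte and 2 of 3 macrophage markers rose, the pan-leukocyte list averaging 10.05 to 10.38 on sham and 11.02 to 11.26 on castrated arrays; their part in the result was not tested.

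Genes of the other matrix lists also passed at day 20 in TEC. Of 8 TGF-beta genes 4 fell, among them Tgfbr3 (-1.50 ± 0.40) and Smad3 (-0.61 ± 0.17). Ltbp3 (-0.87 ± 0.18) and Ltbp4 (-1.32 ± 0.27) fell, 2 of 6 in the elastic fibre list, and Ddr1 (-0.87 ± 0.18), 1 of 10 receptors. Of 10 other glycoproteins, Tnc (0.91 ± 0.25) and Ecm1 (0.77 ± 0.27) rose and Prelp fell (-0.89 ± 0.24). Of 8 collagen synthesis genes, the collagen chaperone Serpinh1 (-0.79 ± 0.21) and Plod3 (-0.38 ± 0.11) fell and P4ha2 rose (0.54 ± 0.16).

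Averaged over days 4, 7 and 20, 6 matrix genes were higher and 0 lower in castrated TEC, against 5.87% and 4.95% of all genes (10.8% in either direction, with 0.293% not overlapping). Mmp9 was higher by 0.60 ± 0.09 (adjusted p = 0.00103, limma), the transmembrane collagen Col17a1 by 0.81 ± 0.18 and the FACIT collagen Col22a1 by 0.96 ± 0.20. Col22a1 read 6.88, 6.94 and 7.01 on sham day 7 and 7.96, 8.03 and 7.99 on castrated day 7 arrays, and 6.76, 6.40 and 6.62 against 7.25, 7.43 and 7.60 at day 20. At day 4 its sham arrays read 7.22, 7.65 and 5.94 and its castrated arrays 7.70, 8.10 and 8.0. Castrated arrays were thus above the sham arrays of the same day at all 3 days. Mmp13 (0.68 ± 0.20), Col14a1 (0.53 ± 0.16) and Col5a1 (0.41 ± 0.10) made up the rest. With unoperated arrays as the control, 1 of these 6 calls held (Col5a1), with Col22a1 at 0.33 and Mmp9 at 0.23, although 10 genes passed in all. With only the arrays compared 13 passed.

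The day 20 TEC arrays differed from those of days 4 and 7 whatever the operation. Of 45 genes, 9 were higher and 13 lower, against 25.6% and 38.6% of all genes (64.2% in either direction, with 25.6% not overlapping), so the matrix genes were below the background in both directions. Fn1 ranged from 7.61 to 8.30 over the 6 day 20 arrays and from 4.48 to 7.31 over the arrays of days 4 and 7 (2.02 ± 0.43, adjusted p = 4.27e-04, limma). It passed the filter only through the day 20 groups, where it is high. Its call thus adds no support, and its difference is a lower limit. Col7a1 (1.85 ± 0.20), Adamts19 (1.38 ± 0.15) and Col4a5 (1.36 ± 0.22) were also higher, and Mmp3 (-1.65 ± 0.36), Timp1 (-1.39 ± 0.15) and Loxl1 (-1.26 ± 0.19) were lower. Col4a5, like Fn1, passed the filter only through the day 20 groups. Mmp3 lay below the filter value in both day 20 groups and entered through others. The Col4a5 call likewise adds no support, and the differences of Col4a5 and Mmp3 are lower limits. For Col18a1, which was 0.44 higher, another probe above the filter differed by -0.06. Markers of fibroblasts (4 of 6), endothelium (3 of 4), pericytes and smooth muscle (4 of 7) and thymocytes (3 of 4) were lower at day 20; their part in the result was not tested. Day 20 was measured in TEC alone, and the labels do not say whether its arrays were made with the others.

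Sham surgery itself gave few calls. In TEC, Mmp14 was the 1 gene of 45 that passed, at -0.48 ± 0.11 in sham against unoperated middle-aged mice (adjusted p = 0.0229, limma), against 3.71% of all genes lower and 1.87% higher (5.58% in either direction, with 1.9% not overlapping). Dropping middle-aged array 2 removed the call. Dropping middle-aged array 1 gave 7 calls, middle-aged array 3 gave 3 and sham day 4 array 3 gave 6. In nonTEC, 0 of 57 passed, with 9 at an unadjusted p under 0.05, against 0.244% of all genes higher and 0.0386% lower (0.283% in either direction, with 11% not overlapping), and 1 passed without middle-aged array 1 or 2. Differences of Lamb2 (0.76, adjusted p = 0.082), Col6a2 (0.73, 0.061) and Col5a3 (0.66, 0.061) were nearest to the threshold.

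The ageing and castration contrasts within a fraction share no arrays, so their values for each gene can be set side by side. In nonTEC, 7 matrix genes passed in both ageing and the average over castration days, 24.1% of the 29 ageing calls and 58.3% of the 12 castration calls. For 6 of the 7 the signs were opposite (85.7%), against 96.9% of the 356 genes called in both over the whole table. Timp3, Nid1, Mmp3 and Lamc3 rose with age and were lower than sham after castration, and Mmp9 and Col18a1 fell with age and were higher after castration. Col5a3 was lower in both. The ageing call held under 13 of 13 alternatives for Timp3, Mmp9 and Col5a3 and 9 of 11 for Lamc3. It held under 6 of 13 for Nid1 and Col18a1 and 5 of 13 for Mmp3. The castration call held under 18 of 18 for Timp3 and Nid1, 17 of 18 for Mmp9 and 16 of 18 for Mmp3. It held under 13 of 16 for Lamc3, 9 of 18 for Col5a3 and 5 of 18 for Col18a1. Lamc3 lay below the filter value in young (mean 6.24) and castrated nonTEC (6.62 at day 4, 6.61 at day 7). It entered the test only through middle-aged and sham groups, where it is high, so it adds no support for opposite signs. Of the 29 matrix genes called with age, 16 had the opposite sign after castration (55.2%), against 74.8% of all genes called with age. Col3a1 differed by -1.81 with age and 0.36 after castration, Col1a1 by -1.37 and -0.17, Col4a1 by -1.22 and -0.19, and Col6a2 by -1.83 and -0.02, none of these castration values passing.

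In TEC, 5 matrix genes passed in both ageing and castration at day 20, 35.7% of the ageing calls and 50% of the castration calls. Adamts19, Col7a1, Col18a1, Lama1 and Timp2 rose with age and were lower than sham after castration at day 20. Against unoperated controls the castration call held for Col18a1 and Timp2, but that contrast uses the same middle-aged arrays as the ageing contrast. Noise in those arrays would move both, so it adds no separate support for opposite signs. All 5 signs were opposite, as were 99.8% of the 851 genes of the whole table called in both. Lama1 lay below the filter value in young and castrated day 20 TEC and entered through other groups of older mice. It thus adds no support for opposite signs. Of the 14 matrix genes called with age, 13 had the opposite sign at day 20 (92.9%), against 93.8% of all genes called with age, so the matrix genes followed the table. Even so, the castrated day 20 means of Adamts19 (8.69) and Col7a1 (8.56) stayed above the young means (6.82 and 7.28), and day 20 arrays were high in both genes under either operation.

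**Figure D5:**
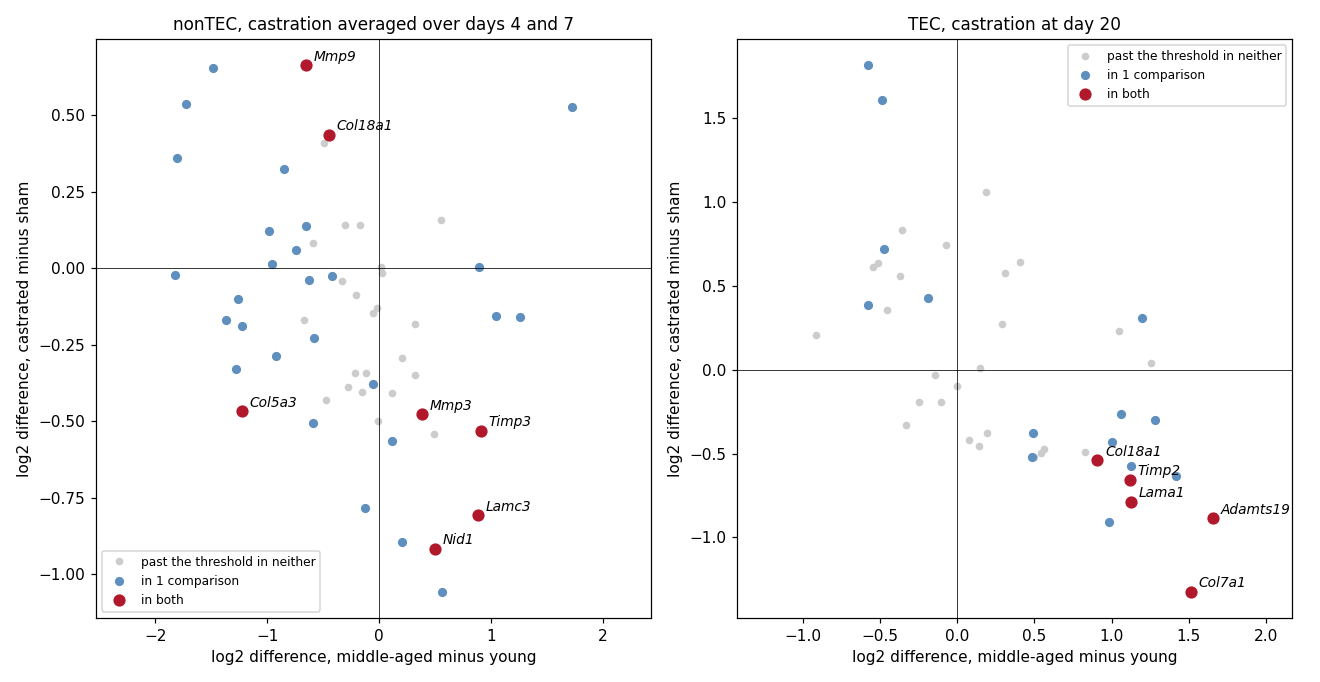
Ageing and castration differences of the matrix genes, nonTEC on the left (castration averaged over days 4 and 7) and TEC on the right (day 20). The x axes are log2 differences, middle-aged minus young, the y axes castrated minus sham, and each point is a gene; red points passed in both comparisons. In nonTEC 6 of the 7 red points have opposite signs, and in TEC all 5 lie at lower right. Lamc3 in nonTEC and Lama1 in TEC lay below the filter value in young and in the castrated groups plotted.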

How the data were processed

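The authors deposited 1 table of normalized log2 intensities, 1 column per array, with values from 4.17 to 14.89. The log base is not stated and was taken as 2, and the quantiles of the columns differ between TEC and nonTEC and agree within each, so the fractions were read as normalized separately. Per the labels, RNA was purified with Qiagen columns, amplified with an Ambion kit and hybridised to Illumina arrays; scanner values were not used here. limma is listed in the submitters' processing notes, with its role not given.

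Of 24671 probes, 20825 had 1 gene symbol, 11 several and 3835 none in the platform annotation. Each gene took its probe of highest mean, per fraction. Group means were fitted with limma 3.58.1 (R 4.3.3, eBayes with trend) on 24 TEC arrays, 17 nonTEC arrays, or all 41 for contrasts between fractions. Genes with no group mean above 6.73 were left out, and p-values were adjusted by Benjamini-Hochberg over all genes tested. The fit was tested on simulated data. Precision is set by how many arrays each group has.

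The matrix genes, the related pathway lists and the marker lists were chosen with earlier results of these data known. Every matrix gene could be named, those past the threshold first by size, and up to 3 genes past the threshold per related list by smallest p. Alternatives were no filter, a stricter filter (7.84), quantile normalization, the mean of all probes, only the arrays compared, the other control, a replicate block, leaving out 4 TEC arrays that stood apart (middle-aged array 3, castrated day 4 arrays 2 and 3, sham day 4 array 3), and leaving out each array in turn. On the first component of the TEC matrix genes, castrated day 4 array 2 (-1.57) lay less far out than castrated day 7 array 3 (-2.38), which was kept. Labelled replicate numbers were not taken as pairs. NonTEC at day 20 was not analysed here.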

Additional observations from a re-analysis of the deposited data

Results flagged for a closer look

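The difference between middle-aged and young mice differed between TEC and nonTEC, by limma's test of the difference itself, for 16 matrix genes. For Col26a1, Col3a1, Col5a2, Col5a3 and Mmp17 both TEC groups lay below the filter value of 6.73. The gaps of Col3a1, Col5a2, Col5a3 and Mmp17 thus restate the nonTEC change and show no difference between fractions. That of Col26a1 holds a TEC difference of 0.8, not tested on its own, and a nonTEC difference of -1.48. All values are log2, TEC minus nonTEC, with the fractions read as normalized separately. Among chains of network, anchoring and other non-fibrillar collagens, the gap was 2.29 for Col26a1, 2.26 for Col7a1, 2.09 for Col8a2, 1.70 for Col15a1 and 1.36 for Col18a1. For the collagen IV chains it was 1.82 for Col4a2 and 1.30 for Col4a1. Among fibrillar chains it was 1.89 for Col3a1, 1.32 for Col5a3 and 1.08 for Col5a2. It was 1.87 for the laminin chain Lamb3, 1.36 for elastin (Eln), 1.22 for Mmp2 and 1.17 for Timp2. The gap had the other sign for Timp3 (-1.10) and Mmp17 (-0.91).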

How the results depend on the processing

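Of 180 calls of a matrix gene in a comparison, 99 held under every alternative run for them. With only the arrays compared, the counts of matrix genes called were 0 for TEC ageing, 18 for nonTEC ageing, 6 for the ageing difference between fractions, 0, 2 and 33 for TEC castration at days 4, 7 and 20, 13 for its average, 10 for nonTEC castration at day 7 and 0 for TEC sham against unoperated. Without the 4 TEC arrays that stood apart they were 22 for TEC ageing, 25 for the ageing difference, 0, 3 and 19 for TEC castration at days 4, 7 and 20, and 11 for TEC sham. With unoperated controls they were 0, 7, 27 and 10 for TEC castration at days 4, 7, 20 and on average, and 7, 9 and 8 for nonTEC castration at days 4, 7 and on average. Without a filter they were 16 for TEC day 20 castration, 2 for nonTEC day 7, 2 for TEC sham, 1 for nonTEC sham and 36 for TEC day 20 against days 4 and 7. The stricter filter gave 1 for TEC day 4 and 2 for nonTEC day 7, quantile normalization 2 for nonTEC day 7, and the mean of all probes 6 for nonTEC day 4, 2 for TEC sham and 1 for nonTEC sham. The cause was not tested.

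Leaving out 1 array gave 7 to 16 calls for TEC ageing, 20 to 30 for nonTEC ageing, 12 to 22 for the ageing difference, 0 to 8, 0 to 0 and 6 to 10 for TEC castration at days 4, 7 and 20, 4 to 9 for its average, 2 to 17 and 0 to 0 for nonTEC castration at days 4 and 7, 3 to 11 for its average, 56 to 56 between fractions, 0 to 7 for TEC sham, 0 to 1 for nonTEC sham and 20 to 24 for TEC day 20 against days 4 and 7. Signs turned for Adamts19 in TEC day 20 castration (0.22) and Col5a3 in nonTEC castration on average (0.19) with unoperated controls, and with the mean of all probes for Mmp24 between fractions (0.04) and Timp3 in TEC day 20 against days 4 and 7 (-0.01).

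Deviations of same-numbered arrays correlated above 0.1 in 35 of 84 TEC pairs, against 34 of 168 differently numbered pairs (median correlation 0.051 and -0.036), and in 8 of 40 nonTEC pairs, against 19 of 80. Same-numbered TEC arrays thus deviated together more often, but not in every pair, and the numbers were not taken to pair the samples. With the replicate block, 16 genes were called for TEC ageing, 24 for nonTEC ageing, 17 for the ageing difference, 2, 0 and 11 for TEC castration at days 4, 7 and 20, 8 for its average, 9 and 0 for nonTEC castration at days 4 and 7, 9 for its average, 56 between fractions, 2 for TEC sham, 0 for nonTEC sham and 23 for TEC day 20 against days 4 and 7.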
